A study of Homo sapiens with 12 samples.

Results

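The interaction of the naive state with the line label was measured in libraries labelled as 2 human embryonic stem cell lines. It was the naive minus primed difference in the libraries labelled RUES-2 less the same difference in H9. A positive value means that a gene moved further up, or less far down, from primed to naive in the libraries labelled RUES-2. All 12 libraries entered, grouped by sample title, and 13869 autosomal genes with at least 1 FPKM (read fragments scaled to transcript length and library size) in at least 3 libraries were tested, of 22501 autosomal gene ids and 23615 gene ids in the tables. Values are on the log2(FPKM + 1) scale, which understates the change of genes of low level. A gene was called where limma's Benjamini-Hochberg adjusted p over all genes tested was under 0.05.

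H9 and RUES-2 are established lines. Each of the 4 groups held 3 libraries of poly(A) RNA, described by the submitters as biological replicates, with no word on whether they came from separate cultures, and the p-values cover the spread among them and no more. Primed H9 (passages 31 to 35) and primed RUES-2 (passages 30 to 33) grew on mitomycin C-treated mouse embryonic fibroblast feeders with knockout serum replacement and 4 ng/mL bFGF. Naive H9 (passages 27 to 31) and naive RUES-2 (passages 24 to 26) were kept with LIF at 20 ng/mL, insulin at 18 µg/mL, glucose at 5 mM and a pair of kinase inhibitors, PD0325901 at 1 µM against MEK and CHIR99021 at 3 µM against GSK3. Medium and state go together under both line labels and cannot be told apart, and neither can passage range and group.

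Primed human embryonic stem cells resemble the epiblast after implantation and depend on FGF and activin signals, while naive cells resemble the epiblast before implantation. Inhibiting GSK3 stabilises beta-catenin and so switches on WNT target genes, and inhibiting MEK lowers the output of the ERK pathway. Lines are known to differ in how they take up a naive state, and an interaction test asks for which genes the response to the change of state differs between lines.

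In a check of genes that tell the lines apart, 3 of the 12 libraries did not match the line they are labelled as, and none of the 3 carries the H9 label. Those 3 make up 1 whole group, so the interaction could not be formed without them, and a change of line cannot be told apart from a response to the naive state in what follows. By this check the primed and naive groups labelled RUES-2 also differ in line. From here on, the word line stands for the line label. Depth, from the confidence bounds of 10861 genes, ran from 0.673 to 1.58 of the mean over libraries, and small RNAs took 36.1% to 51.4% of the summed autosomal FPKM. The pluripotency genes POU5F1, SOX2 and LIN28A were detected in all groups. POU5F1 ran from 416.6 to 982.6 FPKM, SOX2 from 34.0 to 136.2 and LIN28A from 253.1 to 443.5 over the 12 libraries. Of 20 core pluripotency genes tested, 10 were called as falling and 2 as rising from primed to naive in H9. In the libraries labelled RUES-2, 12 fell and 3 rose. The naive-state factors KLF17 and ESRRB stayed at or below 0.174 and 0.0763 FPKM in every library, and TFCP2L1 at or below 1.21. KLF2, another naive-state factor, went the other way, at 0.0495 to 0.23 FPKM in the primed libraries, 2.25 to 3.02 in naive H9 and 1.55 to 3.41 in naive RUES-2.

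The interaction was called for 667 genes (4.81%), of which 471 (3.4%) were higher and 196 (1.41%) lower in the libraries labelled RUES-2. The state comparisons themselves called 6049 genes in H9 (43.6%, with 19.5% up and 24.1% down) and 6475 in the libraries labelled RUES-2 (46.7%, with 23% up and 23.7% down). The median interaction over all genes was 0.0091, and 2858 genes (20.6%) had an unadjusted p under 0.05. With quantile normalization 60.3% of the 614 calls were higher, and with libraries rescaled to the sum without small RNAs 60.5% of 613, against 70.6% here. Leaving out 1 library gave 302, 339 and 350 calls without naive H9 replicates 1, 2 and 3, 332 without primed RUES-2 replicate 1, and 361 and 322 without naive RUES-2 replicates 1 and 2. The called genes nearest the threshold had an adjusted p of 0.0498 and the nearest gene outside 0.05003. Of the 667, 3 were small RNAs, which poly(A) libraries measure poorly and which are not named.

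Most of the higher genes set the naive libraries apart and not the primed ones. Among the 471, the lines differed in the naive state and not in the primed state by their own tests for 427 (90.7%). Over all genes, 2078 (15%) were called between the naive groups and 251 (1.81%) between the primed groups. These last counts take each state whatever the call in the other. The 3 naive RUES-2 libraries lay above all 9 others for 273 of the 471 (58.0%) and for 10.2% of all genes tested. The lower genes were divided more evenly: the lines differed in the naive state and not in the primed state for 112 of 196 (57.1%), and in the primed state and not in the naive state for 45 (22.96%). Naive RUES-2 lay below all 9 others for 66 of the 196 (33.7%) and for 6.68% of all genes. These contrasts share libraries with the interaction and describe its shape.

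By state, 78 of the higher genes rose from primed to naive in the libraries labelled RUES-2 and fell in H9. A further 207 rose in the libraries labelled RUES-2 and were not called in H9, and 111 fell in H9 and were not called in the other line. The remaining 75 moved the same way in both lines, 33 up and 42 down, by unequal amounts. Among the 196 lower genes, 24 fell in the libraries labelled RUES-2 and rose in H9, 64 fell in the libraries labelled RUES-2 alone by these calls, 54 rose in H9 alone, and the rest moved the same way in both, 26 up and 28 down. The filter bears on these counts: 75 of the higher genes (15.9%) and 21 of the lower (10.7%) reached 1 FPKM in 1 group only, against 1.22% of all genes tested, and such genes had to differ.

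**Figure D1:**
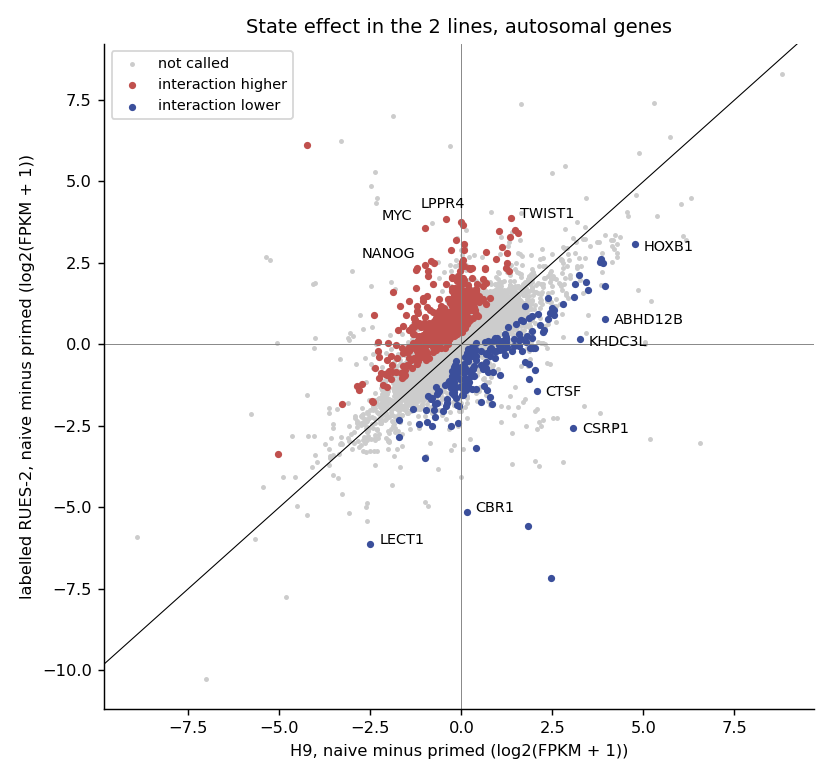
Naive minus primed difference in H9 (horizontal axis) against that in the libraries labelled RUES-2 (vertical axis), both on log2(FPKM + 1), 1 point per autosomal gene tested. The line marks equal change, red points are the 471 genes with a higher and blue points the 196 with a lower interaction, and a few of the genes with a large interaction are named.

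MYC, the growth-promoting transcription factor at chromosome 8, 128748315 to 128753680 (hg19, as are all positions), had the highest interaction of all named genes. Its level was 29.4, 20.4 and 44.1 FPKM in primed H9, 14.2, 14.7 and 14.5 in naive H9, 22.4, 16.2 and 19.9 in primed RUES-2, and 199, 428 and 169 in naive RUES-2. The 3 naive RUES-2 libraries stood far above the other 9, whose groups lay close together. MYC fell by 0.99 in H9 (SE 0.33, adjusted p 0.0348) and rose by 3.58 in the libraries labelled RUES-2 (SE 0.33, adjusted p 2.3e-05), an interaction of 4.57 (SE 0.47, adjusted p 0.0014). Of its neighbours within 1 Mb, looked up after its value was seen, PVT1 and POU5F1B were tested and neither was called, at 0.65 and 0.49.

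NANOG, a core factor of pluripotency on chromosome 12 (7941995 to 7948655), showed the same shape. Primed H9 had 81.5, 51.2 and 100.4 FPKM, naive H9 41.2, 47.4 and 43.0, primed RUES-2 55.9, 33.2 and 63.4, and naive RUES-2 247.8, 458.8 and 193.1. Again naive RUES-2 lay above all others, and naive H9 was at the low end. The interaction was 3.25 (SE 0.49, adjusted p 0.0058), with a rise of 2.49 in the libraries labelled RUES-2 (SE 0.34, adjusted p 2.5e-04) and -0.76 in H9 (SE 0.34, adjusted p 0.097). NANOG has near-identical pseudogene copies, so its FPKM can include reads of theirs. Of 34 genes tested within 1 Mb of it, LEPREL2 was called, at 1.17, and DPPA3 and GDF3, which sit in the same cluster, had -0.12 and -0.10.

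Other core pluripotency genes did not follow NANOG. POU5F1, the central pluripotency factor, fell in both lines, by 1.05 in H9 and 0.56 in the libraries labelled RUES-2, and its interaction of 0.49 was not called (SE 0.18, adjusted p 0.161). SOX2, its partner, had an interaction of -0.66 (SE 0.21, adjusted p 0.103). ZFP42, a zinc finger gene known as a stem cell marker, went the other way from NANOG: it held at 59.6 to 78.3 FPKM in the 9 other libraries, but was at 40.0, 35.5 and 30.7 in naive RUES-2. Its interaction of -0.87 (SE 0.16, adjusted p 0.0155) crossed the threshold without naive H9 replicate 1 (adjusted p 0.0502). Over the 20 core pluripotency genes tested, 1 was higher and 1 lower.

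Several of the other genes with the highest interaction were close to silent outside naive RUES-2. LPPR4, a membrane protein of neurons on chromosome 1, was at 0.0687 to 0.686 FPKM in the other 9 libraries and at 18.2, 33.3 and 13.9 in naive RUES-2 (interaction 4.29, SE 0.35, adjusted p 3.4e-04). DSCR8, a noncoding gene of the Down syndrome region of chromosome 21, was listed at 0 in 8 of the 9 other libraries and at 0.271 in the ninth, against 14.3, 9.69 and 18.6. LOC100130964 was listed at 0 in 8 of those 9 and at 0.0934 in the ninth, against 11.6, 25.6 and 5.20. These 3 genes reached 1 FPKM in naive RUES-2 only, so the filter required that they differ. DNAJC12, a co-chaperone of the aromatic amino acid hydroxylases, was detected everywhere, at 0.415 to 1.24 FPKM in 9 libraries and at 13.8, 27.2 and 9.04 in naive RUES-2 (interaction 3.35, SE 0.45, adjusted p 0.0042).

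SLC6A15, a transporter of neutral amino acids, moved in opposite directions. It fell from 6.78, 5.60 and 11.2 FPKM in primed H9 to 2.74, 2.69 and 2.51 in naive H9, and rose from 1.94, 1.84 and 3.19 in primed RUES-2 to 13.7, 22.8 and 12.2 in naive RUES-2. Primed H9 lay between the low groups and naive RUES-2, with no overlap between states in either line (interaction 3.58, SE 0.37, adjusted p 0.0014). MEIOB, a DNA-binding protein of meiotic recombination, crossed likewise: it fell by 1.25 in H9 and rose by 2.29 in the libraries labelled RUES-2. HLA-DQB1, a class II histocompatibility gene whose reads depend on the alleles a line carries, fell by 1.88 and rose by 1.60. SERPINI1, an inhibitor of serine proteases, TSPO, a protein of the outer mitochondrial membrane, and MATK, a kinase that restrains SRC kinases, had interactions of 3.44, 3.40 and 3.31, all with the highest group mean in naive RUES-2.

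Replicate 2 of naive RUES-2 gave the highest level of its group in 393 of the 471 higher genes (83.4%) and in 36.5% of all genes tested. Its level was 2.32 times the mean of replicates 1 and 3 for MYC, 2.08 times for NANOG and 2.39 times for DNAJC12, but 0.588 times for DSCR8 and 0.619 times for HLA-DQB1. Among the lower genes it was the highest of its group in 25 of 193 (13.0%). Without that library the interaction of MYC, NANOG, SLC6A15, MEIOB, HLA-DQB1, SERPINI1, TSPO, DNAJC12 and MATK was still called.

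**Figure D2:**
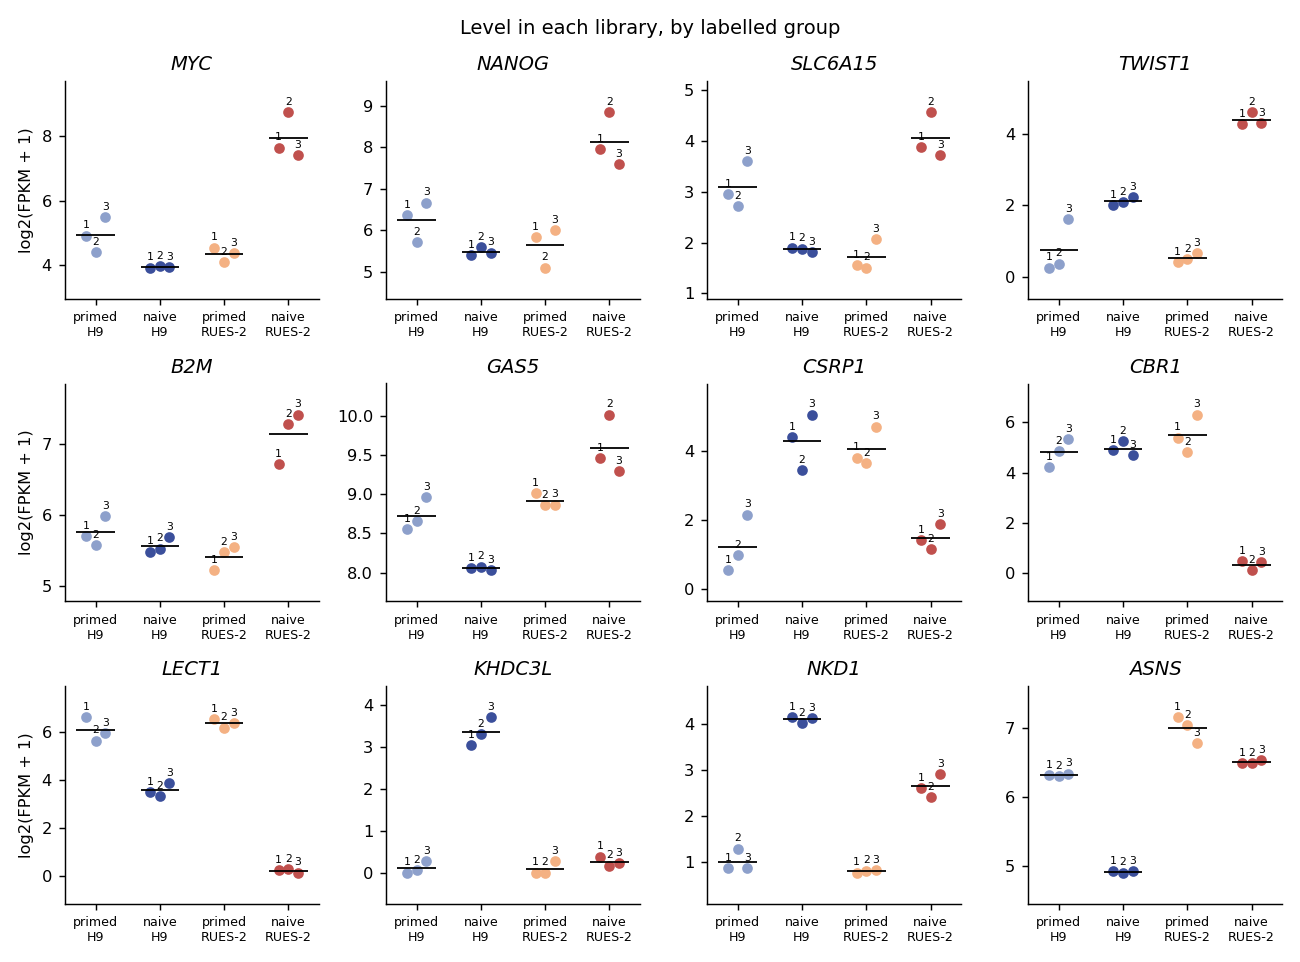
Level of 12 genes on log2(FPKM + 1) in each library (points, numbered by replicate) of the 4 labelled groups, with the group mean as a bar and axes that do not start at 0. MYC, NANOG and TWIST1 stand out as high in naive RUES-2, CBR1 and LECT1 as low there, and KHDC3L as high in naive H9.

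CSRP1, a LIM-domain protein that binds the actin cytoskeleton (chromosome 1, 201452658 to 201476387), had the lowest interaction. Its level was 0.453, 0.979 and 3.44 FPKM in primed H9, 20.0, 9.84 and 32.2 in naive H9, 13.0, 11.6 and 25.0 in primed RUES-2, and 1.67, 1.22 and 2.68 in naive RUES-2. The states thus exchanged places between the lines, with naive H9 and primed RUES-2 high and the other 2 groups low. The interaction was -5.64 (SE 0.69, adjusted p 0.0029), a rise of 3.07 in H9 against a fall of 2.57 in the libraries labelled RUES-2. None of the 20 other genes tested within 1 Mb was called.

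CBR1, a carbonyl reductase on chromosome 21 (37442285 to 37445462), was nearly absent from naive RUES-2 alone. Naive RUES-2 had 0.395, 0.0958 and 0.360 FPKM, against 17.8 to 39.0 in primed H9, 25.0 to 37.0 in naive H9 and 27.1 to 78.3 in primed RUES-2. The groups other than naive RUES-2 overlapped. Its interaction was -5.29 (SE 0.51, adjusted p 0.0010), while its neighbours CBR3 and SETD4 had 1.73 and 0.84 and were not called (adjusted p 0.0726 and 0.05003). SETD4 overlaps CBR1 in part and whether the counting used strand is not stated in the labels or headers, so reads of the pair may be mixed.

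LECT1, a cartilage glycoprotein that inhibits vessel growth and is abundant in primed cells, fell in both lines by unequal amounts. It went from 98.7, 49.3 and 61.5 FPKM to 10.5, 9.17 and 13.8 in H9, and from 92.1, 72.4 and 83.4 to 0.199, 0.241 and 0.113 in the libraries labelled RUES-2. The primed groups overlapped and the naive groups did not (interaction -3.64, SE 0.32, adjusted p 5.65e-04). C9orf64 showed 3.25 to 11.9 FPKM in 9 libraries and 0.158 to 0.191 in naive RUES-2, an interaction of -3.59. DUSP23, a phosphatase, and HES3, a repressor of the Notch-linked HES family, were also lowest in naive RUES-2, with interactions of -2.49 and -2.31.

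For other genes a high naive H9 group or a primed group made the difference. ABHD12B, a predicted hydrolase, reached 28.5 to 33.8 FPKM in naive H9 and 0.365 to 6.27 elsewhere (interaction -3.15, SE 0.60, adjusted p 0.0175), a call that was lost without primed RUES-2 replicate 1 (adjusted p 0.0509) and without naive RUES-2 replicate 2 (0.0519). CCNA1, the germline-associated cyclin A, and ART5, an ADP-ribosyltransferase, were highest in naive H9 too, at 3.66 to 6.07 and 12.3 to 31.4 FPKM. CTSF, the lysosomal protease cathepsin F, differed first in the primed state. It was at 0.0395 to 0.276 FPKM in primed H9 and 16.6 to 21.6 in primed RUES-2, and the naive groups lay between, at 2.76 to 5.30 and 5.12 to 6.84 (interaction -3.50, SE 0.27, adjusted p 2.5e-04). LOC100505876 had the same order of groups, with an interaction of -2.48.

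Beside these single genes, 33 lists of pathways and cell type markers were described by their calls and medians, to be read against 4.81% called and a median of 0.0091 over all genes tested. The median of 5 lists changed sign under another scaling of the libraries: core pluripotency, lysosome, mTOR pathway, heat shock proteins and neural crest markers.

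WNT and beta-catenin targets mostly rose in both lines and had a median interaction below 0. Of 23 tested, 22 rose in H9 and 20 in the libraries labelled RUES-2, and the median interaction was -0.61 with 5 of 23 above 0. The 5 called members were all lower. NKD1, a feedback inhibitor of WNT signalling, rose from 0.813, 1.44 and 0.811 to 16.9, 15.3 and 16.6 FPKM in H9 and from 0.6998, 0.754 and 0.774 to 5.12, 4.31 and 6.58 in the libraries labelled RUES-2. The primed groups were alike in level and naive RUES-2 reached less than naive H9 in every library (interaction -1.26, SE 0.21, adjusted p 0.0089).

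AXIN2, a scaffold of the beta-catenin destruction complex and itself a target, reached 44.7 to 48.3 FPKM in naive H9 and 19.6 to 30.6 in naive RUES-2 (interaction -1.38, SE 0.23, adjusted p 0.0092). RNF43, a ligase that removes WNT receptors, had -1.10 (SE 0.19, adjusted p 0.0121). TNFRSF19, a receptor of the tumour necrosis factor family, had -1.64 and FZD7, a WNT receptor that fell in both lines, -0.85. Leaving out 8 of the 12 libraries singly ended the call of TNFRSF19 (adjusted p 0.0524 to 0.0813) and 11 of the 12 that of FZD7 (0.0545 to 0.1125). The target SP5 rose by 4.56 in H9 and 4.07 in the libraries labelled RUES-2, and its interaction of -0.49 was not called (adjusted p 0.766). T, the mesoderm factor brachyury, rose by 2.91 and 2.96, with an interaction of 0.05 (adjusted p 0.971).

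The HOX clusters, which hold homeobox genes that set position along the body axis, rose widely in the naive state. All 28 HOX genes tested rose from primed to naive in the libraries labelled RUES-2 and 19 rose in H9. Of these 28, 23 were under 1 FPKM in all 6 primed libraries and passed the filter through naive libraries alone, which fixes much of that rise. Called members with a higher interaction were HOXD4, HOXD8, HOXD9, HOXD10, HOXD11 and HOXD13, all of the cluster on chromosome 2. HOXD10 was at 3.34, 7.36 and 3.19 FPKM in naive RUES-2 and at 0 to 0.173 in the other 9 libraries (interaction 2.33, SE 0.31, adjusted p 0.0039). HOXD13, which acts in limb and genital development, rose in both lines, from 0 to 0.0332 FPKM in the primed libraries to 1.295, 0.852 and 1.501 in naive H9 and 6.24, 10.1 and 5.39 in naive RUES-2 (interaction 1.86, SE 0.26, adjusted p 0.0046). The other 5 reached 1 FPKM in naive RUES-2 only, so the filter required that they differ, and they left the test when any naive RUES-2 library was left out.

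HOXB1, a hindbrain gene at the opposite end of the HOX order, was the 1 member with a lower interaction. It rose from at most 0.348 FPKM in the primed libraries to 28.9, 40.5 and 26.1 in naive H9 and to 8.18, 8.25 and 12.85 in naive RUES-2 (interaction -1.68, SE 0.28, adjusted p 0.0101). Naive H9 lay above naive RUES-2 without overlap.

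Beside these, the summed FPKM of 18 mesendoderm markers was 31.2 to 81.2 in primed H9, 24.1 to 59.1 in primed RUES-2, 328.6 to 391.8 in naive H9 and 222.7 to 342.7 in naive RUES-2. Their part in the WNT and HOX values was not tested. Of the 17 tested, none was higher and MSGN1 and TBX6, both factors of presomitic mesoderm, were lower at -1.55 and -0.95. MSGN1 reached 1 FPKM in naive H9 only, so the filter required that it differ, and it left the test without any naive H9 library. Both calls ended when single libraries were left out (3 for MSGN1, adjusted p 0.0514 to 0.0607; 11 for TBX6, 0.0546 to 0.1019). In bulk RNA, fewer cells of a type and less RNA per cell cannot be told apart.

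Few markers of the oocyte, the germline and the 8-cell embryo were detected, and those called were lower. Of 27 listed, 7 were tested, and KHDC3L, KHDC1L, KHDC1 and SLC34A2 were lower and none higher. The KHDC genes are neighbours on chromosome 6, between 73933268 and 74073898. KHDC1 fell in both lines (interaction -0.79, SE 0.20, adjusted p 0.0496). NLRP7 was the 1 member above 0, at 1.23 (SE 0.65, adjusted p 0.317), with means of 6.72 FPKM in naive H9 and 17.7 in naive RUES-2. KHDC3L, a component of the maternal complex of oocytes, was at 7.27, 8.97 and 12.2 FPKM in naive H9 and at 0 to 0.302 in the other 9 libraries (interaction -3.08, SE 0.23, adjusted p 2.5e-04). KHDC3L, KHDC1L and SLC34A2, a phosphate transporter, reached 1 FPKM in naive H9 only, so the filter required that they differ. Without any 1 naive H9 library these 3 left the test and none of the list was called. KHDC1L was at 3.77, 2.103 and 2.06 FPKM in naive H9, and 7 other single libraries ended its call (adjusted p 0.0605 to 0.1044).

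The naive pluripotency list had 3 lower members of 19, ALPPL2, an alkaline phosphatase, besides the KHDC genes, and 0 higher. By state, 13 of its 19 genes rose in H9 and 7 in the libraries labelled RUES-2. The filter bears on these counts. Of the 19, 3 reached 1 FPKM in naive H9 only, among them KHDC3L and KHDC1L, and 0 in naive RUES-2 only. ALPPL2 reached 3.82 to 6.80 FPKM in naive H9 and 0.242 to 2.103 elsewhere (interaction -1.99, adjusted p 0.0399), and 9 single libraries ended the call (adjusted p 0.058 to 0.1066). DNMT3L, a cofactor of DNA methylation that marks naive cells, rose in both lines, to 9.43 to 16.7 FPKM in naive H9 and 25.2 to 74.7 in naive RUES-2, and its interaction of 1.07 was not called (SE 0.55, adjusted p 0.312). DNMT3B, the methyltransferase of primed cells, fell by 2.00 and 2.71 (interaction -0.71, adjusted p 0.0821). TFAP2C and KLF4, factors of the naive network, had -1.18 and 0.29 and were not called (adjusted p 0.278 and 0.746).

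Among 21 primed pluripotency genes, CYTL1, a secreted protein, was higher at 1.95 and CRABP2 and FZD7 lower. CRABP2, which carries retinoic acid to its nuclear receptors, went from 61.9 to 131.2 FPKM in primed H9 to 414.2 to 441.5 in naive H9, and from 113.3 to 167.8 to 144.0 to 260.9 in the libraries labelled RUES-2. Naive H9 lay above the 9 others (interaction -1.83, SE 0.39, adjusted p 0.0253). In the retinoic acid pathway 3 of 16 genes were lower and 0 higher: CRABP2, DHRS3, which reduces retinaldehyde, at -1.26, and the receptor RARG at -0.67. The last 2 fell in both lines and fell further in the libraries labelled RUES-2. CRABP2 and RARG each lost the call without any of 7 single libraries (adjusted p 0.0505 to 0.0684 and 0.0505 to 0.0661), DHRS3 without naive H9 replicate 1 (0.0502) and CYTL1 without naive RUES-2 replicate 2 (0.0505). OTX2 and ZIC2, primed-state factors, had 0.51 and 1.11 and were not called (adjusted p 0.501 and 0.146).

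Among targets of the inhibited kinase 9.09% were called and among LIF and STAT3 targets 6.25%, against 4.81% of all genes tested. The medians were 0.18, with 16 of 22 above 0, and 0.42, with 11 of 16 above 0. Between the naive groups, 7 of the 16 LIF and STAT3 targets were called higher in RUES-2 and 1 lower. In the MEK and ERK list of 22, MYC and IER3, an immediate early gene, were higher and 0 lower. IER3 was at 4.26 to 9.86 FPKM in primed RUES-2, the low group, and 18.8 to 38.5 in the other 9 libraries (interaction 1.72, adjusted p 0.0283). DUSP6 and SPRY4, feedback inhibitors of ERK, had 1.69 and 0.88 with wide errors (SE 0.82 and 0.59) and were not called. OSMR, the oncostatin M receptor, was the 1 called of 16 LIF and STAT3 targets, at 0.80, and SOCS3, the feedback inhibitor of STAT3, had 0.57 (adjusted p 0.491). IER3 lost the call without any of 6 single libraries (adjusted p 0.0518 to 0.0792) and OSMR without any of 9 (0.0513 to 0.089).

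In the NODAL and TGF-beta pathway, FST, the activin antagonist follistatin, rose in both lines: from 16.0 to 34.2 FPKM to 243.3 to 248.1 in H9 and from 21.5 to 35.9 to 76.9 to 134.1 in the libraries labelled RUES-2. Its interaction of -1.78 (SE 0.42, adjusted p 0.0376) was lost without any of 9 single libraries (adjusted p 0.0647 to 0.1005). GDF1, a ligand whose locus overlaps CERS1, was the other called of 23, at 0.96 (lost without 3 libraries, 0.059 to 0.0609). The BMP pathway had a median interaction of -0.61, with 6 of 19 genes above 0 and 15.8% called. Its median was -0.61 to -0.72 over the scalings tried. Its lower members were NOG, an extracellular BMP antagonist, at -1.35 and GATA3, a trophoblast factor, at -1.68. SMAD9, a signal transducer, was higher at 1.44. GATA3 was highest in primed RUES-2, at 1.52 to 4.37 FPKM against 0 to 0.798 in the other 9 libraries, and reached 1 FPKM in that group only. GATA3 and SMAD9 lost the call without any of 8 and of 6 single libraries (adjusted p 0.0603 to 0.0919 and 0.0511 to 0.0767).

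**Figure D3:**
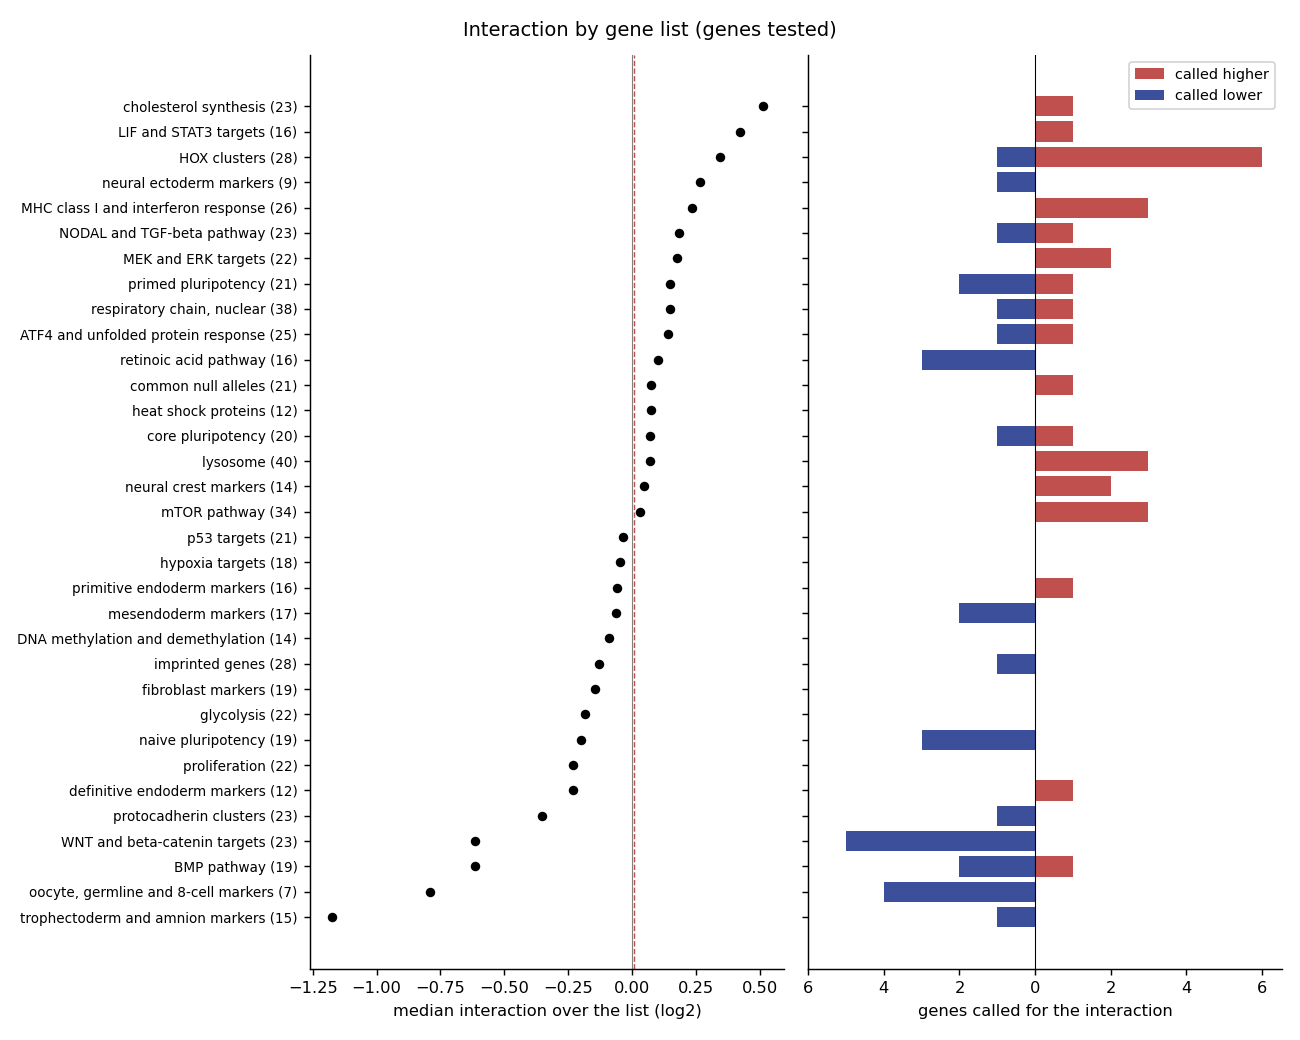
Left, median interaction (log2) over the tested genes of each list, with the number tested in brackets, 0 as a solid line and the median over all genes, 0.0091, as a dashed line. Right, number of genes called higher (to the right of 0) and lower (to the left) per list: the HOX clusters have the most higher calls, 6, and the WNT targets the most lower calls, 5. Of the 6 HOX genes, 5 reached 1 FPKM in naive RUES-2 only, so the filter required that they differ.

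Trophectoderm and amnion markers had the lowest list median, -1.18, with 3 of 15 tested above 0, and GATA3 was the 1 called. By state 10 of the 15 rose in H9 and 5 in the libraries labelled RUES-2. Between the lines, 3 were higher in primed RUES-2 and 1 in naive RUES-2, and 0 were lower in either state. Of the 15, 2 reached 1 FPKM in 1 group only, 1 in primed RUES-2 and 1 in naive RUES-2. HAND1, a factor of extraembryonic mesoderm and amnion, spread widely within the naive groups, at 38.6, 14.5 and 72.7 FPKM in naive H9 and 26.9, 11.9 and 36.4 in naive RUES-2. Its interaction of -1.45 had an SE of 1.11 (adjusted p 0.506). The summed FPKM of 23 such markers was 820.5 to 1270 in naive H9 and 618.9 to 1133 in naive RUES-2, against 354.8 to 513.3 and 482.3 to 827.8 in the primed groups, and its part in the values here was not tested.

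TWIST1 and NR2F1, transcription factors of neural crest and mesenchyme, were higher of 14 neural crest markers and 0 were lower. TWIST1 rose from 0.193, 0.293 and 2.09 FPKM to 3.05, 3.27 and 3.71 in H9 and from 0.331, 0.402 and 0.573 to 18.3, 23.5 and 18.8 in the libraries labelled RUES-2. Naive RUES-2 was high in all 3 libraries and naive H9 intermediate (interaction 2.51, SE 0.42, adjusted p 0.0092), and the call was lost with a pseudocount of 0.1 (adjusted p 0.0848). NR2F1 reached 5.42, 11.7 and 5.19 FPKM in naive RUES-2 and at most 1.32 elsewhere (interaction 2.15, SE 0.36, adjusted p 0.0092). The summed level of 20 fibroblast markers, of which 19 were tested and 0 called, ran from 872.7 to 2664 FPKM in naive RUES-2 and from 1305 to 1861 in naive H9, and its part in the TWIST1 value was not tested.

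SOX17, an endoderm and germ cell factor, fell in H9 and rose in the libraries labelled RUES-2, to 8.40, 4.48 and 4.22 FPKM in naive RUES-2 against 0.483 to 3.51 elsewhere. It was the 1 called of 16 primitive and of 12 definitive endoderm markers, at 1.49 (adjusted p 0.0334), and 8 single libraries ended the call (adjusted p 0.055 to 0.0855). OLIG3, a factor of the dorsal neural tube and the 1 called of 9 neural ectoderm markers, reached 18.9 to 21.1 FPKM in naive H9 and 7.58 to 14.0 in naive RUES-2, an interaction of -1.21 that 9 single libraries ended (0.0561 to 0.0829).

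Cholesterol synthesis had the highest list median, 0.51, with 22 of 23 genes above 0 in each scaling tried. Several members spread widely within primed H9, as HMGCS1 (mean 70.5 FPKM, SD 59.5) and FDPS (130.5, SD 70.2). Their interactions of 0.58 and 0.80 had SEs of 0.72 and 0.43. Others spread less, as SC5DL (16.1, SD 4.14). By state 9 of the 23 were called as rising in the libraries labelled RUES-2 and 0 in H9. Between the naive groups 1 was called higher in RUES-2 and 1 lower. PMVK, phosphomevalonate kinase, was the 1 gene whose interaction was called. It was at 24.6 to 32.4 FPKM in naive RUES-2 and 19.3 to 23.1 in the other 9 libraries (interaction 0.57, SE 0.13, adjusted p 0.0365), and 10 single libraries ended the call (adjusted p 0.0518 to 0.102). PMVK and FDPS lie on chromosome 1 beyond 150 Mb, a stretch with a median interaction of 0.27 that is described below. Most of the list lies elsewhere, and the part of position in these values was not tested. Proliferation genes had a median of -0.23, 2 of 22 above 0 and 0 called.

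Nuclear genes of the respiratory chain had 31 of 38 above 0, 24 with libraries rescaled to the sum without small RNAs, and a median of 0.15. By state 27 rose in the libraries labelled RUES-2 and 14 in H9. Of the 38, 1 was called higher and 1 lower, the latter UQCRFS1, the Rieske protein of complex III, at -0.67. Glycolysis and hypoxia targets had no call among 22 and 18 genes, with medians of -0.18 and -0.05.

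Amino acid stress genes differed in direction. ASNS, asparagine synthetase and a target of ATF4, fell in H9 from 78.6, 78.2 and 79.8 to 29.4, 29.0 and 29.5 FPKM and in the libraries labelled RUES-2 from 141.5, 130.6 and 108.8 to 88.5, 88.6 and 91.4. The 4 groups did not overlap (interaction 0.91, SE 0.12, adjusted p 0.0034). SLC7A11, the cystine transporter, rose from 3.87 to 4.56 to 19.4 to 25.9 FPKM in H9 and from 7.34 to 7.95 to 9.60 to 14.8 in the libraries labelled RUES-2 (interaction -1.58, SE 0.20, adjusted p 0.0034). They were the 2 called of 25 in the list of ATF4 and unfolded protein response genes.

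The mTOR pathway, which couples growth to nutrients, had 3 of 34 genes higher and 0 lower. IRS2, an insulin receptor substrate, fell from 2.98 to 3.75 FPKM to 0.851 to 1.34 in H9, and was at 2.73 to 3.75 in primed and 3.41 to 5.33 in naive RUES-2 (interaction 1.35, SE 0.22, adjusted p 0.0082). RRAGD, a GTPase that recruits mTOR to the lysosome, had 1.14 and EIF4EBP1, a repressor of translation that mTOR inactivates, 0.48. These last 2 calls ended without any of 9 and of 10 single libraries (adjusted p 0.0581 to 0.0999 and 0.0571 to 0.1118). MTOR itself had -0.14 (SE 0.14, adjusted p 0.614) and DDIT4, its stress-induced inhibitor, fell by 2.12 and 2.08 with an interaction of 0.04 (adjusted p 0.974). Of 40 lysosomal genes 3 were higher and 0 lower: RRAGD, GAA, the acid alpha-glucosidase, at 1.09, and GPNMB, a lysosomal glycoprotein that reached 1 FPKM in naive RUES-2 only, at 1.08 (lost without any of 7 other libraries, 0.0523 to 0.0775).

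Of 26 genes of class I antigen presentation and the interferon response, 3 were higher and 0 lower. B2M, the invariant chain of class I molecules, was at 104.4, 153.9 and 169.3 FPKM in naive RUES-2 and 36.5 to 62.6 in the other 9 libraries (interaction 1.90, SE 0.25, adjusted p 0.0034). NLRC5, the activator of class I genes, reached 1 FPKM in naive RUES-2 only, at 1.02 to 2.60, and had 1.16. IFITM2, an antiviral membrane protein with near-identical paralogs, had 0.83. NLRC5 and IFITM2 lost the call without any of 9 and of 8 single libraries (adjusted p 0.0506 to 0.0897 and 0.0505 to 0.0768).

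In the remaining lists 1 gene or none was called. PCDHGA3 of the protocadherin clusters, adhesion genes of neurons (1 of 23), reached 1.16 to 1.77 FPKM in naive H9 only (interaction -1.08), and the imprinted phosphatase INPP5F (1 of 28) had -0.94, lost without any of 10 single libraries (adjusted p 0.0585 to 0.0971). Among 21 genes with common null alleles HLA-DQB1 was the 1 called. No gene was called among 21 p53 targets, 12 heat shock proteins and 14 genes of DNA methylation and demethylation.

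Of the 5 called genes of highest level, GAS5, a noncoding host gene of small nucleolar RNAs, had an interaction of 1.34 (SE 0.24, adjusted p 0.0123). It fell from 375.1 to 498.3 FPKM to 260.9 to 269.1 in H9 and rose from 464.0 to 515.7 to 626.7 to 1033 in the libraries labelled RUES-2. ZFAS1, a host gene of the same kind, moved likewise, at 0.91. CKB, the brain creatine kinase, and DPYSL3, a cytoskeletal protein of neurons, had -0.87 and -0.94, the former with naive H9 highest and the latter with naive RUES-2 lowest. Calls of ZFAS1, CKB and DPYSL3 ended without any of 7, 7 and 9 single libraries (adjusted p 0.0607 to 0.088, 0.0506 to 0.0762 and 0.0518 to 0.0831).

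Position along the genome also went with the interaction. In windows of 10 Mb with at least 20 genes tested, the 9 windows of chromosome 1 from 150 Mb on had medians of 0.04 to 0.51. Of the 232 other windows 114 had a median above 0, and the highest was 0.27. This stretch was chosen after the windows were seen, so its values are a description. Of its 589 genes tested, 55 were higher (9.34%), 9 lower (1.53%) and 75.2% above 0, with a median of 0.27. Before 150 Mb on the same chromosome 20 of 856 were higher (2.34%) and the median was 0.0026, and on the other autosomes 396 of 12424 (3.19%) were higher.

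The shift lay in the naive RUES-2 libraries. The median deviation of these genes from their mean over the 12 libraries was 0.15, 0.28 and 0.13 in naive RUES-2 replicates 1, 2 and 3, and from -0.11 to -0.02 in each of the other 9 libraries. Between the lines the median difference of the stretch was 0.27 in the naive state and 0.0053 in the primed state. The stretch holds GAS5 and PMVK among the higher genes named above, and CSRP1, DUSP23 and CRABP2 among the lower. MYC, NANOG, CBR1 and LECT1 lie on other chromosomes.

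**Figure D4:**
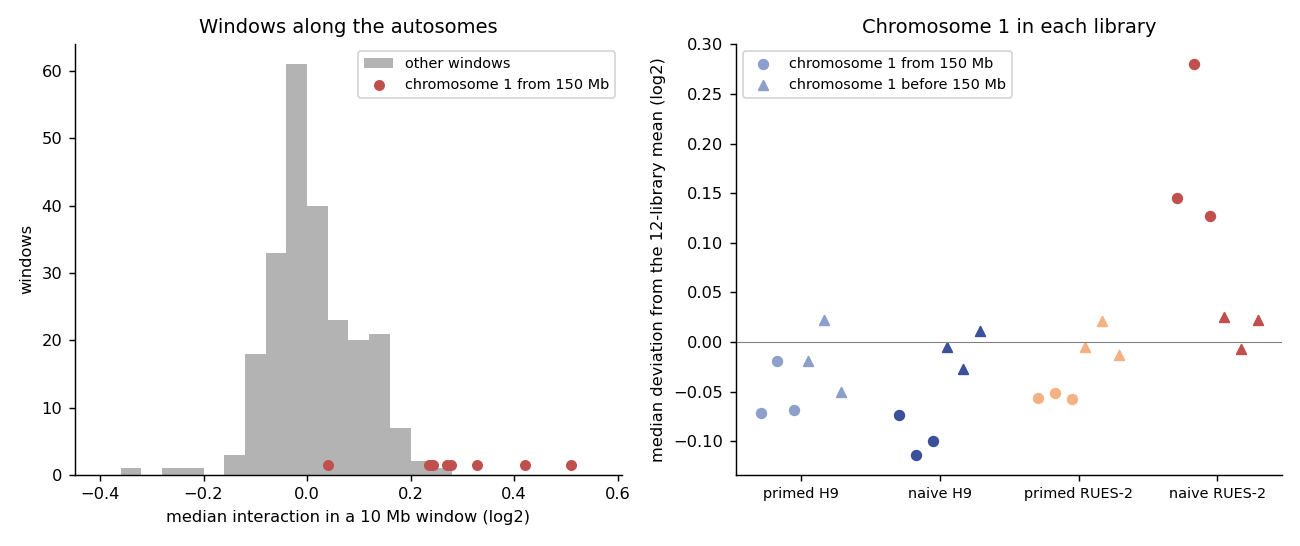
Left, histogram of the median interaction (log2) in 10 Mb windows of the autosomes, with the 9 windows of chromosome 1 from 150 Mb as red points placed at an arbitrary height. Right, median deviation (log2) of chromosome 1 genes from their mean over the 12 libraries, 1 point per library, for the stretch from 150 Mb (circles) and before it (triangles): the 3 naive RUES-2 circles lie at 0.13 to 0.28, above all others.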

How the data were processed

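Poly(A) RNA of manually picked colonies was sequenced in 12 libraries. The build hg19, TopHat2 2.1.1 and bcl2fastq 2.17.1.14 come from the submitters' processing notes; no label or header names the program or annotation that gave the expression values. Per the file headers, the deposited tables, 1 a library, list FPKM and its confidence bounds for each gene. Each held 25278 rows for 23615 gene ids; tables were joined on gene id and locus, rows off the autosomes were left out, and for 189 ids with several rows the one of highest mean was kept. Whole reads could not be recovered from the FPKM (40.3% to 43.5% of the fragments implied under 60 lay within 0.05 of a whole number), so no count test was run. The confidence bounds imply a median of 47.8 to 112 fragments at 1 to 2 FPKM. 2 values had a status other than OK and were kept.

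Genes were tested two-sided with limma 3.58.1 (R 4.3.3) on log2(FPKM + 1), with 1 mean per group, a variance trend and Benjamini-Hochberg adjustment over 13869 genes. In simulated data for the interaction on 13869 genes, 66% of changes of 1 on the log2 scale and 94% of changes of 2 were recovered. The noise was drawn independently for each gene at its own residual spread, around additive group means, with no shift shared by a library. These rates hold for that setting and may not for the real libraries. Genes named are a set of 20 pluripotency and pathway genes, the 12 highest and 12 lowest called interactions and the 6 largest in opposite directions (group mean of at least 5 FPKM), up to 3 called genes per list and the 5 called genes of highest level; RNF43, KHDC1, HOX genes beyond 3, LIN28A, KLF2, KLF17, ESRRB, TFCP2L1 and neighbours were added after their values were seen. The members and lists were chosen with earlier results of these data known. Some genes are not reported here. Figures were drawn with matplotlib 3.10.9.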

Additional observations from a re-analysis of the deposited data

Results flagged for a closer look

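The interaction test called the genes below. Among them LPPR4, DSCR8, LOC100130964, GPNMB, HOXD9, HOXD10, HOXD11 and NLRC5 reached 1 FPKM in naive RUES-2 only. KHDC3L, KHDC1L, PCDHGA3, MSGN1 and SLC34A2 did so in naive H9 only, and GATA3 in primed RUES-2 only. The filter required that such genes differ. Each gene called is given by its interaction (naive minus primed in the libraries labelled RUES-2 less the same in H9, log2). The 12 highest were MYC 4.57, LPPR4 4.29, DSCR8 3.77, LOC100130964 3.63, SLC6A15 3.58, MEIOB 3.54, HLA-DQB1 3.48, SERPINI1 3.44, TSPO 3.40, DNAJC12 3.35, MATK 3.31 and NANOG 3.25. The 12 lowest were CSRP1 -5.64, CBR1 -5.29, LECT1 -3.64, C9orf64 -3.59, CTSF -3.50, ABHD12B -3.15, KHDC3L -3.08, ART5 -2.92, DUSP23 -2.49, LOC100505876 -2.48, HES3 -2.31 and CCNA1 -2.30.

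Among WNT targets the values were TNFRSF19 -1.64, AXIN2 -1.38, NKD1 -1.26 and FZD7 -0.85. In the other signalling and pluripotency lists the higher genes were CYTL1 1.95, IER3 1.72, SMAD9 1.44, GDF1 0.96 and OSMR 0.80, and the lower were CRABP2 -1.83, FST -1.78, GATA3 -1.68, NOG -1.35, DHRS3 -1.26, ZFP42 -0.87 and RARG -0.67. For metabolism, lysosome and mTOR the higher genes were IRS2 1.35, RRAGD 1.14, GAA 1.09, GPNMB 1.08, ASNS 0.91, PMVK 0.57 and EIF4EBP1 0.48, and the lower were SLC7A11 -1.58 and UQCRFS1 -0.67. Developmental genes were higher for TWIST1 2.51, HOXD10 2.33, NR2F1 2.15, HOXD11 2.15, HOXD9 1.89 and SOX17 1.49 and lower for ALPPL2 -1.99, MSGN1 -1.55, KHDC1L -1.48, OLIG3 -1.21, SLC34A2 -1.06 and TBX6 -0.95. The last group had B2M 1.90, GAS5 1.34, NLRC5 1.16, ZFAS1 0.91 and IFITM2 0.83 as higher and PCDHGA3 -1.08, DPYSL3 -0.94, INPP5F -0.94 and CKB -0.87 as lower genes.

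Of these, the following lost the call (adjusted p of 0.05 or more) when 1 library was left out, here written as group and replicate number. The call was lost for ZFP42 without naive H9 1; ABHD12B without primed RUES-2 1 and naive RUES-2 2. The threshold was missed by ALPPL2 without any library but primed H9 3, naive H9 2 and naive RUES-2 1; KHDC1L without any library but primed H9 3 and naive RUES-2 1 (naive H9 1, 2 and 3: not tested). Not called were CYTL1 without naive RUES-2 2; CRABP2 without any library but primed H9 2 and 3, primed RUES-2 2 and 3 and naive RUES-2 3. A call was missing for FZD7 without any library but naive RUES-2 3; TNFRSF19 without any library but primed H9 2, primed RUES-2 3 and naive RUES-2 2 and 3. The call was lost for IER3 without primed H9 1, naive H9 1 and 3, primed RUES-2 1 and naive RUES-2 1 and 3; OSMR without any library but naive H9 3, primed RUES-2 2 and naive RUES-2 1. The threshold was missed by FST without any library but primed H9 1, primed RUES-2 3 and naive RUES-2 3; GDF1 without naive H9 1 and 3 and naive RUES-2 2. Not called were GATA3 without any library but primed H9 2 (primed RUES-2 1, 2 and 3: not tested); SMAD9 without naive H9 1 and 2, primed RUES-2 1 and 3 and naive RUES-2 1 and 2. A call was missing for DHRS3 without naive H9 1; RARG without any library but primed H9 2 and 3, primed RUES-2 2 and naive RUES-2 2 and 3. The call was lost for RRAGD without any library but primed H9 3, primed RUES-2 2 and naive RUES-2 1; GPNMB without any library but primed H9 1 and 2 (naive RUES-2 1, 2 and 3: not tested). The threshold was missed by EIF4EBP1 without any library but naive H9 3 and naive RUES-2 3; PMVK without any library but naive RUES-2 2 and 3. Not called were INPP5F without any library but primed RUES-2 2 and naive RUES-2 3; NLRC5 without any library that left it in the test. A call was missing for IFITM2 without any library but primed H9 2 and 3, primed RUES-2 3 and naive RUES-2 2; MSGN1 without primed RUES-2 1 and naive RUES-2 1 and 2 (naive H9 1, 2 and 3: not tested). The call was lost for TBX6 without any library but primed H9 3; OLIG3 without any library but primed H9 1, primed RUES-2 3 and naive RUES-2 3. The threshold was missed by SOX17 without any library but primed H9 3, primed RUES-2 3 and naive RUES-2 1 and 3; ZFAS1 without any library but primed H9 1, 2 and 3, primed RUES-2 1 and naive RUES-2 3. Not called were CKB without any library but primed H9 1 and 3, primed RUES-2 2 and 3 and naive RUES-2 2; DPYSL3 without any library but primed RUES-2 2 and 3 and naive RUES-2 3.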

How the results depend on the processing

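Of the 71 named genes called, 39 kept the call under every alternative in which they were tested, 32 lost it under at least 1, and 0 reversed; 194 genes (133 higher, 61 lower) were called under every alternative except the 5 FPKM filter, which was left out of this count. Genes that reach 1 FPKM in 1 group only leave the test when a library of that group is left out. The tables hold no counts, the interaction rests on 3 libraries per group, and 1 whole group failed the line check, so depth and line cannot be weighed further. The cause of the changes below was not tested.

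Interaction calls numbered 325 (226 higher, 99 lower) with a filter of 5 FPKM, which tests fewer genes, and 3241 (1942 higher, 1299 lower) with array weights. Leaving out 1 library gave 302 to 681 calls, 218 to 444 higher and 84 to 239 lower. For naive minus primed in H9, array weights gave 9107 (4317 higher), the 5 FPKM filter 2136 lower, and leaving out 1 library 4706 to 6306 (1984 to 3004 higher, 2704 to 3479 lower). In the libraries labelled RUES-2 the filter gave 2143 lower, and leaving out 1 library 5275 to 6938 (2542 to 3515 higher, 2695 to 3423 lower). Between the primed groups the filter gave 96 (64 higher, 32 lower), array weights 2539 (1523 higher, 1016 lower) and leaving out 1 library 42 to 368 (35 to 272 higher, 7 to 117 lower). Between the naive groups the filter gave 1341 (945 higher), array weights 6006 (3745 higher, 2261 lower), quantile normalization 859 lower, the sum without small RNAs 1223 lower, and leaving out 1 library 1053 to 2613 (831 to 1822 higher, 212 to 791 lower).

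With the replicate number as a block 577 interaction genes were called, 512 of them shared with the 667, and 163 between the primed groups (120 higher, 43 lower). Deviations of same-numbered libraries correlated at -0.054 to 0.15, over 0.1 in 2 of 18 pairs, both of replicate 2. With 3 libraries per group these weak correlations cannot settle whether the numbers pair the libraries. Named genes not called with the block were TNFRSF19, FST, GATA3, GPNMB, EIF4EBP1, PMVK, NLRC5, TBX6, OLIG3, SOX17, ZFAS1 and DPYSL3 (adjusted p 0.0518 to 0.065).

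Another scaling of the libraries ended the calls of EIF4EBP1, PMVK, RRAGD, IFITM2, OSMR, OLIG3, SOX17 and ZFAS1 (adjusted p 0.0533 to 0.0752). A pseudocount of 0.1 ended those of ALPPL2, KHDC1L, GPNMB, MSGN1, OLIG3 and TWIST1 (0.0508 to 0.145), and a pseudocount of 5 those of FZD7, GATA3, RRAGD, NLRC5, TBX6 and SOX17 (0.0502 to 0.0843). Without a filter ALPPL2, FZD7, FST, RRAGD and INPP5F lost the call (0.0504 to 0.0546), with the 5 FPKM filter FZD7, EIF4EBP1 and INPP5F (0.0525 to 0.0549), and without the variance trend EIF4EBP1 (0.0514).

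Among genes not called, values without single libraries ran from -0.0008 (without primed H9 replicate 3) to 0.63 for KLF4, from -1.11 to 0.23 (without primed H9 replicate 3) for SP5, from -0.33 to 0.42 for T and from -0.44 to 0.45 for DDIT4. SP5 changed sign to 0.89 with array weights. T went to -0.24 with a pseudocount of 0.1 and -0.0597 with the sum without small RNAs. DDIT4 went to -0.0744 with a pseudocount of 5, -0.0205 with quantile normalization and -0.0584 with the sum without small RNAs.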
